A study of Homo sapiens with 8 samples.

Results

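The genes described here encode the constitutive proteasome: the rings and lids of the 26S particle, its activators, its inhibitor and the chaperones that assemble it. They were chosen as the genes whose symbol follows the PSMA to PSMG naming pattern, without the interferon-inducible subunits PSMB8, PSMB9 and PSMB10, and with at least 10 counts in 2 or more of the 8 libraries. The members were thus chosen by symbol and by raw counts, not by fold changes, though with earlier results known. This gave 43 of the 45 genes with such a symbol, out of 23228 genes listed. The count minimum used the same counts that are described below. Just inside it was PSMC1, with 15 to 31 counts per library, and just outside it were PSMB11, with at most 1 count, and PSMA8, with 0 counts in all libraries.

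RNA sequencing was done on 8 libraries labelled as U87 MG, a widely used line from a human glioblastoma, grown in DMEM with serum. They form 4 groups of 2 libraries. In the groups ERβ5 and ERβ1, that isoform of estrogen receptor beta (ERβ, gene ESR2) had been put back into ERβ-KO cells, so both groups carry the knockout too. ERβ-KO cells had lost the receptor through CRISPR/Cas9, and control cells were U87 cells without the knockout. The series title asks whether the isoforms act differently on glioblastoma. The sources used here do not give whether a line was 1 clone or what drove the returned isoforms. Nor do they state that the 2 libraries of each group were grown apart, so the p-values rest on a spread between libraries that may be technical.

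The proteasome is the main protease of the cytosol and nucleus. Its 20S core is a barrel of stacked rings, with α subunits (PSMA genes) at the gates and β subunits (PSMB genes) around the cutting chamber. The 19S regulatory particle, built from ATPases (PSMC genes) and other subunits (PSMD genes), binds ubiquitinated proteins, removes the ubiquitin and threads the chain into the core. Other caps can take its place: the PA28 activators, made of PSME1 and PSME2 or of PSME3, and PA200, which is PSME4. In many cells interferon raises PSME1 and PSME2 together with PSMB8, PSMB9 and PSMB10, which replace the catalytic β subunits and form the immunoproteasome. NFE2L1 is a transcription factor known to raise proteasome genes together when the proteasome is inhibited.

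The libraries held 26760897 to 48076414 counts in genes. Some features of the libraries bear on the values below. All 10 luminal epithelial markers examined reached 10 CPM (gene counts scaled to a common library size with TMM factors) in every library. Their summed level was 15280 to 16359 CPM in ERβ5, 16227 to 17027 CPM in ERβ1, 12027 to 12350 CPM in ERβ-KO and 13487 to 14165 CPM in control. Of 10 glioma and mesenchymal markers 4 reached 10 CPM in every library, and the summed level of all 10 was 174 to 177 CPM in ERβ5, 141 to 165 CPM in ERβ1, 244 to 292 CPM in ERβ-KO and 195 to 197 CPM in control. ERβ-KO was thus lowest in the luminal sum and highest in the other, with no overlap with another group in either, and the part of these differences in the results below was not tested. The 4 that reached it were CD44 (47.3 to 61.9 CPM), FN1 (52.7 to 175), SOX2 (11.4 to 30.2) and COL1A1 (15.4 to 29.4). VIM had 1.82 to 12.4 CPM and NES 1.88 to 4.34 CPM. GFAP and CHI3L1 had at most 0.136 and 0.122 CPM, and OLIG2 and POSTN had 0 counts. The luminal markers thus went against the labelled cell line, while the glioma and mesenchymal markers were mixed. ESR2 had 7 and 10 counts in ERβ5, 6 and 18 in ERβ1, 23 and 21 in ERβ-KO, and 25 and 20 in control. These counts do not bear out the labels of the libraries with a returned isoform. Nor do they set ERβ-KO (0.53 and 0.69 CPM) apart from control (0.61 and 0.55 CPM). Every direction below is between libraries so labelled. Over 13058 genes, each library's log2 deviation from the mean over libraries followed the GC content of the transcript, with r = 0.15 and 0.38 in ERβ5, 0.41 and -0.17 in ERβ1, -0.60 and -0.52 in ERβ-KO, and 0.14 and 0.23 in control. Genes are not independent replicates, and no test is attached to these values.

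The 43 genes varied little between groups. All were among the 13915 genes that passed the filter on low counts. With 0.5 CPM added to each, the highest group mean was a median of 1.22 times the lowest for these genes, against 1.32 times for all genes tested. It exceeded 1.5 times for 2 of the 43 genes (4.65%), PSME1 and PSME2, against 25.9% of all genes tested. The genes tested were not matched to the 43 by level, and the part of level in this difference was not tested. The group with the highest mean was ERβ5 for 25 genes, ERβ1 for 2, ERβ-KO for 12 and control for 4. Their summed level was 9054 and 10378 CPM in ERβ5, 8683 and 8584 CPM in ERβ1, 8945 and 9059 CPM in ERβ-KO, and 8091 and 8504 CPM in control. The second ERβ5 library stood apart. It was the highest of the 8 libraries for 29 of the 43 genes, and the median gene lay 0.21 above the mean of the libraries on the log2 scale there, against 0.02 in the first ERβ5 library. Without it, the group with the highest mean was ERβ5 for 10 genes, ERβ1 for 9, ERβ-KO for 16 and control for 8. The ERβ5 comparisons below are therefore also given without the second library.

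Levels between genes were compared as CPM per kb of the canonical transcript, averaged over the libraries. PSMD6, a scaffold subunit of the 19S lid, was the highest at 1217 CPM per kb, and it was also highest per kb of coding sequence (1420 CPM per coding kb). It had 1672 and 1848 CPM in ERβ5, 1530.2 and 1669 CPM in ERβ1, 1669.7 and 1779.7 CPM in ERβ-KO, and 1532 and 1560.2 CPM in control. Next came the core subunit PSMB4 (596 CPM per kb), the activator PSME1 (518), the α subunit PSMA7 (466) and the ATPase PSMC5 (400). At the low end were the assembly chaperone PSMG4 (16.0 CPM per kb), the inhibitor PSMF1 (14.1), whose annotated transcript is 8154 bases long, and the ATPase PSMC1 (0.156). The products of PSMD6 and PSMC1 stand in the particle in equal number, while their transcripts were listed far apart. Reads that align to several places were not counted in genes, so the level of PSMC1 is uncertain. The authors' annotation release is not given in the sources used here, and a transcript end that it lacks would lower a level per kb.

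**Figure D1:**
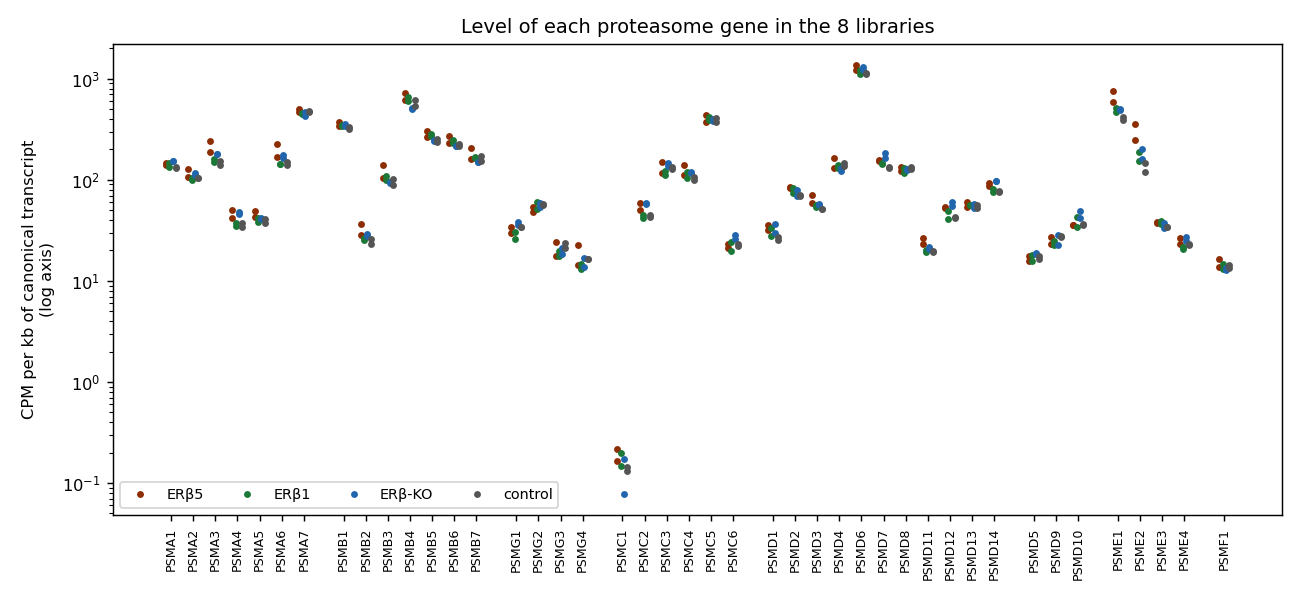
Level of each of the 43 genes in CPM per kb of canonical transcript (log axis), with 1 point per library and colours for ERβ5, ERβ1, ERβ-KO and control. PSMD6 lies highest at a mean of 1217 CPM per kb and PSMC1 lowest at 0.156, and the groups lie close together for most genes.

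PSME1 and PSME2, which form the PA28 ring that opens the core without ubiquitin, differed most between groups. PSME1 had 571 and 726 CPM in ERβ5, 499 and 458 CPM in ERβ1, 479 and 487 CPM in ERβ-KO, and 375 and 403 CPM in control. PSME2 had 197 and 283 CPM in ERβ5, 148 and 121 CPM in ERβ1, 162 and 127 CPM in ERβ-KO, and 95.8 and 117 CPM in control. For both genes, both ERβ5 libraries lay above all other libraries and both control libraries lay below all others, while ERβ1 and ERβ-KO overlapped. Against control, ERβ5 libraries had a log2 fold change of 0.74 ± 0.12 (SE) for PSME1 and 1.17 ± 0.19 for PSME2, which is 1.67-fold and 2.25-fold (edgeR adjusted p = 0.00211 and 0.00262). These and all later values come from edgeR (quasi-likelihood, with p-values adjusted across all genes tested after Benjamini and Hochberg), and genes under 0.05 were called. Without the second ERβ5 library the log2 changes were 0.55 and 0.88, and both genes still passed (edgeR adjusted p = 0.00788 and 0.00942). Against ERβ-KO, ERβ5 was higher by 0.43 ± 0.12 for PSME1 and 0.73 ± 0.19 for PSME2 (edgeR adjusted p = 0.0225 and 0.0173). Neither passed without the second ERβ5 library (0.23 and 0.44, edgeR adjusted p = 0.184 and 0.119). ERβ-KO against control gave 0.31 ± 0.12 and 0.44 ± 0.19, and did not pass (edgeR adjusted p = 0.0891 and 0.121). Both isoforms were compared with the same ERβ-KO libraries. ERβ1 against ERβ-KO gave -0.01 ± 0.12 for PSME1 and -0.10 ± 0.18 for PSME2 (edgeR adjusted p = 0.945 and 0.711).

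The direct comparison of ERβ5 with ERβ1 was called for PSME2, with 0.83 ± 0.19 (edgeR adjusted p = 0.0294), and missed the threshold for PSME1, with 0.44 ± 0.12 (edgeR adjusted p = 0.0614). PSME2 had 0.55 and PSME1 0.26 without the second ERβ5 library, and neither passed (edgeR adjusted p = 0.193 and 0.429). The other caps and the inhibitor moved less. PSME3, which forms a nuclear PA28 ring, had 119 and 121 CPM in ERβ5, 126 and 117 CPM in ERβ1, 118 and 107 CPM in ERβ-KO, and 108 and 109 CPM in control. PSME4 had 192 and 169 CPM in ERβ5, 150.1 and 158 CPM in ERβ1, 197 and 181 CPM in ERβ-KO, and 167 and 166 CPM in control. The ERβ1 libraries lay below all others for PSME4, and the change against ERβ-KO was -0.29 ± 0.10 (edgeR adjusted p = 0.051), past the threshold with DESeq2 (adjusted p = 0.0447). PSMF1, the inhibitor PI31, had 113 and 135 CPM in ERβ5, 120.3 and 106 CPM in ERβ1, 105 and 109.7 CPM in ERβ-KO, and 111 and 118 CPM in control. In the fit of all 8 libraries, PSME3 and PSMF1 passed in none of the 6 comparisons with edgeR or with DESeq2.

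The interferon-inducible core subunits, which are not among the 43 genes, were also highest in ERβ5. PSMB8 had 46.0 and 88.5 CPM in ERβ5, 21.4 and 19.4 CPM in ERβ1, 31.7 and 30.6 CPM in ERβ-KO, and 13.8 and 14.4 CPM in control. PSMB9 had 31.1 and 89.5 CPM in ERβ5, 6.38 and 6.05 CPM in ERβ1, 22.9 and 21.1 CPM in ERβ-KO, and 5.38 and 5.46 CPM in control. PSMB10 had 47.4 and 95.0 CPM in ERβ5, 36.6 and 33.9 CPM in ERβ1, 24.5 and 36.9 CPM in ERβ-KO, and 36.5 and 37.6 CPM in control. Each of the 3 genes was highest in both ERβ5 libraries, and the second of these lay well above the first. In ERβ5 against control PSMB8 rose by 2.25 ± 0.25 and PSMB9 by 3.47 ± 0.42 on the log2 scale (edgeR adjusted p = 0.000491 and 0.000945). In ERβ-KO against control they rose by 1.14 ± 0.25 and 2.02 ± 0.41 (edgeR adjusted p = 0.0152 and 0.0131). In ERβ1 against ERβ-KO PSMB9 fell by 1.83 on the log2 scale (SE 0.41, edgeR adjusted p = 0.0122), while PSMB8 had -0.62 ± 0.24 and did not pass (edgeR adjusted p = 0.0915). In both of these comparisons the PSMB9 call was lost whichever of the 4 libraries compared was left out. The PSMB8 call in ERβ-KO against control did not hold each time either. Across all alternatives PSMB9 had 1.963 to 2.185 and -1.96 to -1.77, and PSMB8 had 1.10 to 1.34 in ERβ-KO against control. PSMB8, PSMB9 and PSMB10 all rose in ERβ5 against ERβ-KO (1.11, 1.45 and 1.21), and PSMB8 and PSMB9 in ERβ5 against ERβ1 (1.72 and 3.28). Without the second ERβ5 library PSMB8 and PSMB9 still passed in these comparisons (0.55 and 0.49 against ERβ-KO, 1.18 and 2.32 against ERβ1, 1.70 and 2.52 against control), and PSMB10 did not (0.62 against ERβ-KO, edgeR adjusted p = 0.0557). With each library's trend with GC content and length removed, PSMB9 in ERβ5 against ERβ-KO did not pass (1.29, edgeR adjusted p = 0.079). In ERβ1 against control these genes had 0.53, 0.20 and -0.07 and did not pass (edgeR adjusted p = 0.282, 0.843 and 0.918).

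**Figure D2:**
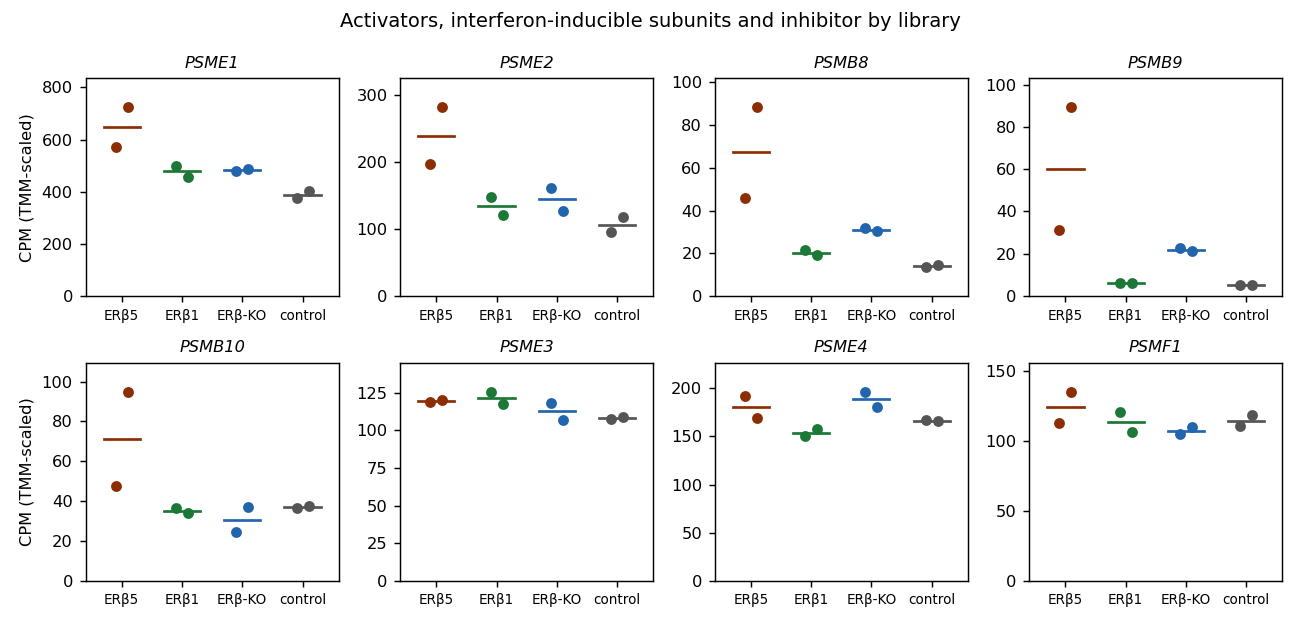
Level in CPM of PSME1, PSME2, PSMB8, PSMB9, PSMB10, PSME3, PSME4 and PSMF1 in ERβ5, ERβ1, ERβ-KO and control, with 1 point per library and a line at the group mean (n = 2). PSME1, PSME2 and PSMB8 to PSMB10 are highest in both ERβ5 libraries, and PSME1, PSME2, PSMB8 and PSMB9 are lowest in control.

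PSME1 and PSME2 are neighbours. PSME1 lies at 24605372 to 24608176 on the plus strand of chromosome 14 and PSME2 at 24612571 to 24616779 on the minus strand (GRCh37, the build of hg19), each with 11 exons in the canonical transcript and with 4394 bases between them. PSME1 overlaps FAM158A and PSME2 overlaps RNF31 on the opposite strand, and because the strand setting of the counting is not given in the sources used here, reads of the overlapping parts cannot be told apart. The same holds for 12 of the 43 genes in all, PSMA3 and PSMC2 among them. The 250 bases before the start of each gene are shown because both genes moved together, in lower case with 2 kinds of motif in capitals. These are the letters of the interferon-stimulated response element (ISRE), which are GAAA, 2 bases of any kind and GAAA, and TGACNNNGC, those of the antioxidant response element that NFE2L1 and NFE2L2 bind with a small MAF protein. Both strands were searched. The sequences are from RefSeq (GRCh38.p14), PSME2 from chr14:24146611-24146860 on the minus strand and PSME1 from chr14:24135944-24136193 on the plus strand, each written 5′ to 3′ along the gene.
PSME2: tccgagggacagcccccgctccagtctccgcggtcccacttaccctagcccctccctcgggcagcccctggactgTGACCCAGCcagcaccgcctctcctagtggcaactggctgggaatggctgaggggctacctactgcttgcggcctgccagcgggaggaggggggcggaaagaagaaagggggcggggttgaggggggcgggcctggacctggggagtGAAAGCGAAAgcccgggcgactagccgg
PSME1: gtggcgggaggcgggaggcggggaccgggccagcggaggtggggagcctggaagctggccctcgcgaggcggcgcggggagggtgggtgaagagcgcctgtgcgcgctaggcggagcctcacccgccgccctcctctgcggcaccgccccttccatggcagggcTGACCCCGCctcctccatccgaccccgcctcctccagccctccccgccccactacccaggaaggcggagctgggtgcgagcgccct
In PSME2 the ISRE match begins 28 bases before the start and the TGACNNNGC match 175 bases before it. PSME1 holds a TGACNNNGC match 86 bases before the start and no ISRE match in this window. The ISRE letters of PSME2, gaaagcgaaa, also stood 21 bases before the start of PSMB10 and 33 bases before that of PSMG4. The windows of PSMB8 and PSMB9 held no ISRE match. A match is a description of letters and not a binding site.

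Windows were found for 37 of the 43 genes and not for PSMA7, PSMB1, PSMB6, PSMB7, PSMD4 and PSMG3. The ISRE letters stood in 4 of the 37 (10.8%), PSMA4, PSMB4, PSME2 and PSMG4, against 3.02% of 35116 windows of the same length over all promoters in the table. TGACNNNGC stood in 10 (27.0%, against 10.9%) and CCAAT in 16 (43.2%, against 32.0%). TTCNNNGAA, the letters of the interferon-gamma activated site, stood in 4 (10.8%, against 6.57%). Each member was counted by its first window only, while the shares over all promoters count every window listed, members included. The shares are therefore not fully alike. PSMB4 is shown as the core subunit that passed together with PSME1 and PSME2 in ERβ5 against ERβ-KO, from chr1:151399323-151399572 on the plus strand (RefSeq, GRCh38.p14), with the ISRE match in capitals 68 bases before the start.
PSMB4: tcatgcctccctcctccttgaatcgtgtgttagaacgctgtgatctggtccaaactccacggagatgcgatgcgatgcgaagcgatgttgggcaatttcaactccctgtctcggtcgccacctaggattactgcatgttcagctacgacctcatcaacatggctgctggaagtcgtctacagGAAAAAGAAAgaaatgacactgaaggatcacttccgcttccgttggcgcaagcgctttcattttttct

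In ERβ-KO against control, the α subunit PSMA4, the ATPase PSMC2 and the lid subunits PSMD7, PSMD12 and PSMD14 rose, and none of the 43 genes fell. By the same edgeR test these 5 of the 43 genes are 11.6%, close to the 8.98% of all genes tested that rose, and 4 of the 5 calls were lost once the trend with GC content was removed, as given below. The count of falls was 0 (0 at an unadjusted p under 0.05 and 0 with DESeq2), against 8.52% of all genes tested, and in either direction 17.5% of all genes were called. The median log2 fold change was 0.12, against 0.01 for all genes tested. Both ERβ-KO libraries lay above both control libraries for 24 genes and below them for 7, against 35.5% and 33.6% of all genes tested. PSMD12, a lid subunit at 65334032 to 65362721 on chromosome 17 (GRCh37), had 262 and 238 CPM in ERβ-KO, against 185 and 184 CPM in control. Its log2 fold change was 0.44 ± 0.11 (edgeR adjusted p = 0.0203). PSMA4, an α subunit at 78832747 to 78844759 on chromosome 15, had 213 and 203 CPM in ERβ-KO, against 150.4 and 162 CPM in control (0.41 ± 0.11, edgeR adjusted p = 0.0261). The groups did not overlap for either gene. PSMC2, an ATPase at 102969017 to 103010793 on chromosome 7, had 159 and 157 CPM in ERβ-KO, against 117 and 121 CPM in control (0.40 ± 0.10, edgeR adjusted p = 0.0234). PSMD7, a lid subunit at 74330712 to 74340186 on chromosome 16, had 297 and 266 CPM in ERβ-KO, against 213 and 217 CPM in control (0.39 ± 0.09, edgeR adjusted p = 0.0193). PSMD14, the lid enzyme that cuts ubiquitin chains off, at 162164936 to 162268228 on chromosome 2, had 154 and 151 CPM in ERβ-KO, against 119 and 121 CPM in control (0.34 ± 0.09, edgeR adjusted p = 0.027). For these 3 genes, too, both ERβ-KO libraries lay above both control libraries.

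The window before PSMD12, the gene with the largest rise among those called, is shown from chr17:67366578-67366827 on the minus strand (RefSeq, GRCh38.p14), with its TGACNNNGC match in capitals 165 bases before the start. The windows of the other genes called, PSMA4, PSMC2, PSMD7 and PSMD14, held no TGACNNNGC match.
PSMD12: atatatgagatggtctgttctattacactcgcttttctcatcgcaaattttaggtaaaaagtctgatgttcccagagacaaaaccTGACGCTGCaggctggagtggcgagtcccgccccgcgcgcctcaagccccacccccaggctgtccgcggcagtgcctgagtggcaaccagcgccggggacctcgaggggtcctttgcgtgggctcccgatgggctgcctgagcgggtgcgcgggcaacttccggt

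These rises moved with GC content. Over the 43 genes the log2 fold change of ERβ-KO against control correlated with the GC content of the transcript at r = -0.58, against -0.47 over all genes, with all points read from the same 4 libraries. The 24 genes with a GC content under the median of all genes (48.8%) had a median log2 fold change of 0.19, and the other genes had -0.01. With each library's trend with GC content and length removed, 5 genes again rose (6.34% of all genes tested then rose), but PSMD7 (0.36, edgeR adjusted p = 0.0155) was the only gene shared. The others were then PSME1 (0.46), PSMD3 (0.37), PSMC3 (0.32) and PSMC4 (0.30), while PSMA4, PSMC2, PSMD12 and PSMD14 had 0.21, 0.12, 0.08 and 0.23 (edgeR adjusted p = 0.254, 0.496, 0.589 and 0.0519). With the second ERβ5 library also left out, an alternative chosen after the data were seen, PSMD14 (0.23) was among the rises again. The count was 0 without either control library or without the first ERβ-KO library, and 2 (PSMD7 and PSMD12) without the second ERβ-KO library.

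**Figure D3:**
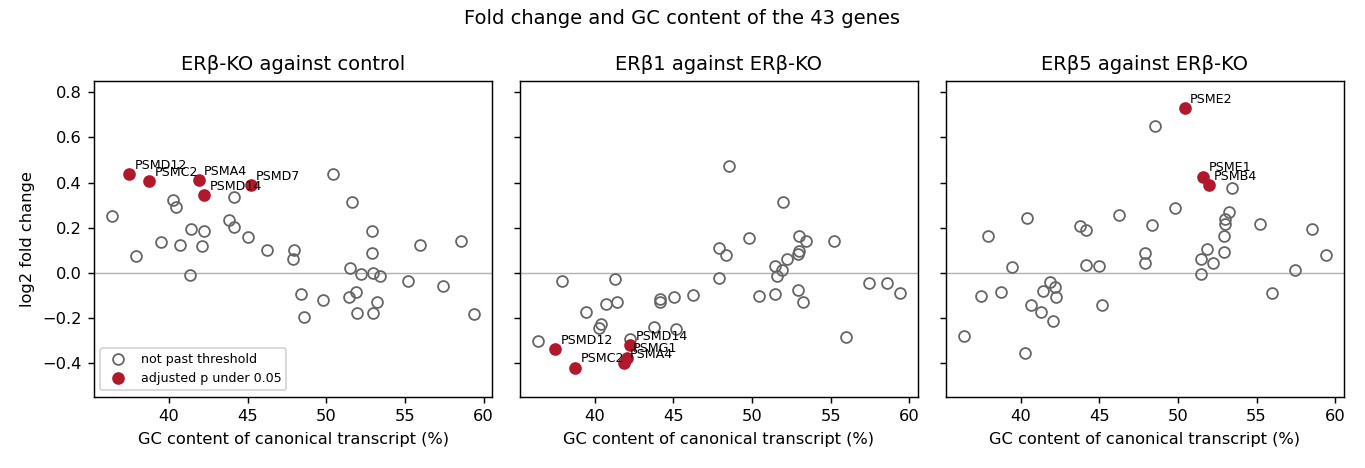
log2 fold change of the 43 genes against the GC content of the canonical transcript (%), for ERβ-KO against control, ERβ1 against ERβ-KO and ERβ5 against ERβ-KO, with filled points for genes with an edgeR adjusted p under 0.05. The correlation over the genes was -0.58, 0.55 and 0.47 in these comparisons.

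In ERβ1 against ERβ-KO, 4 of these 5 genes were lower again, and an assembly chaperone with them. Because both comparisons contain the same ERβ-KO libraries, opposite changes are not separate observations. 5 of the 43 genes fell (11.6%), against 12.5% of all genes tested, and 0 rose (1 at an unadjusted p under 0.05 and 0 with DESeq2), against 12.4% of all genes tested. In either direction 24.9% of all genes were called. The median log2 fold change was -0.09, against 0.00 for all genes tested. Both ERβ1 libraries lay above both ERβ-KO libraries for 6 genes and below them for 17, against 33.4% and 31.9% of all genes tested. The ERβ1 libraries had 114 and 122 CPM of PSMC2, which fell by 0.42 on the log2 scale (SE 0.10, edgeR adjusted p = 0.0139). They had 152 and 162 CPM of PSMA4 (-0.40 ± 0.11, edgeR adjusted p = 0.0207). They had 179 and 216 CPM of PSMD12 (-0.34 ± 0.11, edgeR adjusted p = 0.0401). These 3 genes lay below both ERβ-KO libraries in both ERβ1 libraries. PSMD14 had 118 and 126 CPM in ERβ1 (-0.32 ± 0.09, edgeR adjusted p = 0.0251). PSMD7 had 239 and 235 CPM in ERβ1 and did not pass (-0.25 ± 0.09, edgeR adjusted p = 0.0746).

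PSMG1, a chaperone that with PSMG2 starts the α ring, lies at 40546695 to 40555414 on chromosome 21 (GRCh37). It had 52.0 and 60.0 CPM in ERβ5, 45.9 and 53.8 CPM in ERβ1, 62.2 and 67.5 CPM in ERβ-KO, and 59.4 and 60.2 CPM in control. Both ERβ1 libraries lay below both ERβ-KO and both control libraries. PSMG1 fell by 0.38 in ERβ1 against ERβ-KO (SE 0.12, edgeR adjusted p = 0.0348), and ERβ1 against control gave -0.26 ± 0.12 and did not pass (edgeR adjusted p = 0.247). Before any removal of the GC trend, the other chaperones of the core passed in none of the 6 comparisons with edgeR. PSMG2 had 50.9 and 57.1 CPM in ERβ5, 55.1 and 64.0 CPM in ERβ1, 57.9 and 63.8 CPM in ERβ-KO, and 62.4 and 60.2 CPM in control. PSMG3 had 25.3 and 34.5 CPM in ERβ5, 28.0 and 25.3 CPM in ERβ1, 26.6 and 30.0 CPM in ERβ-KO, and 30.2 and 34.0 CPM in control. PSMG4 had 11.2 and 17.7 CPM in ERβ5, 10.2 and 11.6 CPM in ERβ1, 10.7 and 13.2 CPM in ERβ-KO, and 13.1 and 13.1 CPM in control. For PSMG3 and PSMG4 the ERβ5 libraries overlapped those of ERβ1 and of ERβ-KO.

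The GC content moved with the falls in ERβ1 against ERβ-KO as well (r = 0.55 over the 43 genes, against 0.38 over all genes). With the trend with GC content and length removed, 4 genes fell, against 13.1% of all genes tested. They were the ATPase PSMC3 (-0.48), the 19S subunits PSMD3 (-0.28) and PSMD8 (-0.27), and the chaperone PSMG3 (-0.35), and none was shared with the 5 named above. With the second ERβ5 library also left out, an alternative chosen after the data were seen, PSMA4 (-0.21), PSMD14 (-0.18) and PSMG1 (-0.23) were among the falls again. The count was 0 without either ERβ-KO library or without the first ERβ1 library, and 7 without the second ERβ1 library.

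**Figure D4:**
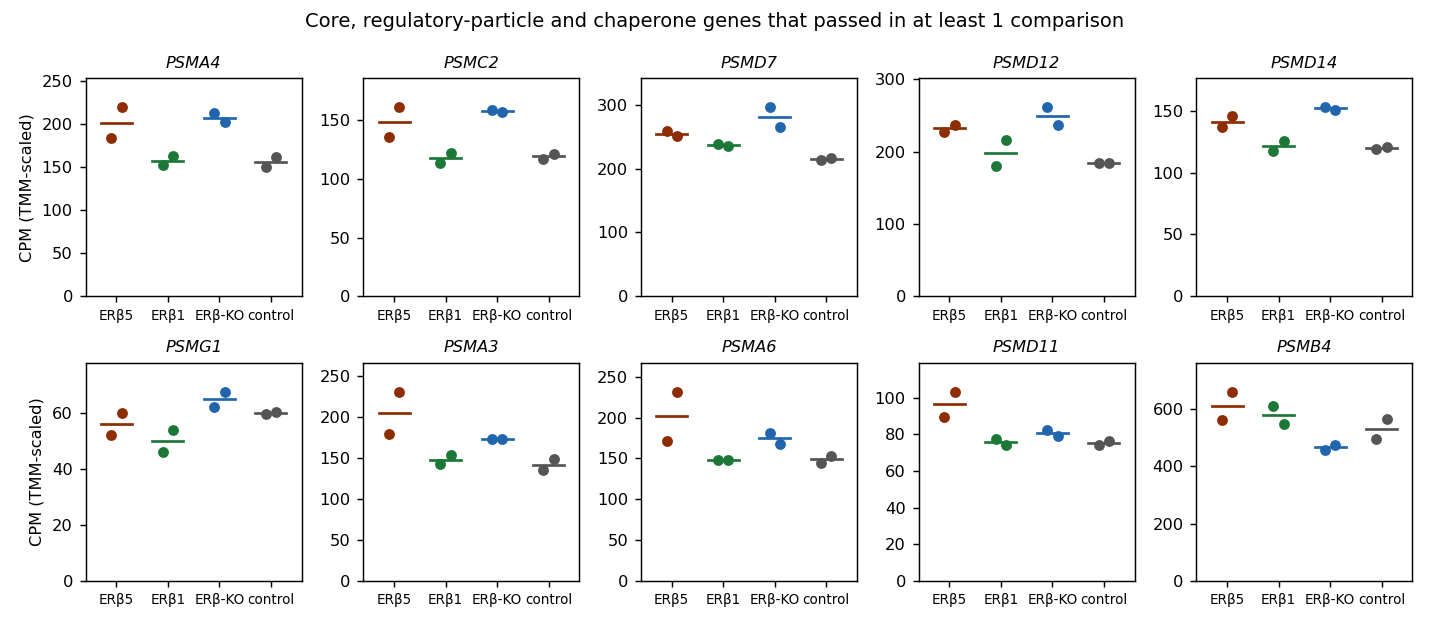
Level in CPM of the 10 genes of the core, the regulatory particle and the chaperones that passed in at least 1 comparison, in ERβ5, ERβ1, ERβ-KO and control, with 1 point per library and a line at the group mean (n = 2). PSMA4, PSMC2, PSMD12 and PSMD14 are lower in ERβ1 and control than in ERβ-KO, and PSMA3 and PSMA6 are highest in the second ERβ5 library.

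In ERβ5 against ERβ-KO, the rises were in PSME1 and PSME2, given above, and in PSMB4, a β subunit without a cutting site at 151372036 to 151374413 on chromosome 1 (GRCh37). These 3 of 43 genes (6.98%) stand against 14.7% of all genes tested that rose. The count of falls was 0 (2 at an unadjusted p under 0.05 and 1 with DESeq2), against 13.5%, and in either direction 28.2% of all genes were called. The median log2 fold change was 0.08, against 0.01 for all genes tested. Both ERβ5 libraries lay above both ERβ-KO libraries for 15 genes and below them for 9, against 32.7% and 33.3% of all genes tested. PSMB4 had 561 and 662 CPM in ERβ5, 613 and 548 CPM in ERβ1, 459 and 476 CPM in ERβ-KO, and 496 and 564 CPM in control. It was lowest in the ERβ-KO libraries, and ERβ5 overlapped ERβ1 and control. Its log2 fold change in ERβ5 against ERβ-KO was 0.39 ± 0.11 (edgeR adjusted p = 0.0279), and 0.25 without the second ERβ5 library (edgeR adjusted p = 0.181). The count was 0 without the second ERβ5 library and 14 without the first. It was 0 without the second ERβ-KO library and 1 without the first. The median was -0.04 without the second ERβ5 library.

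In ERβ5 against ERβ1, the α subunit PSMA3 passed with PSME2. The log2 fold change was positive for 38 of the 43 genes (88.4%), against 49% of all genes tested, and without the second ERβ5 library for 26 (60.5%), against 48%. The 2 genes called (4.65%) stand against 3.49% of all genes tested that rose. The count of falls was 0 (0 at an unadjusted p under 0.05 and 0 with DESeq2), against 1.18%, and in either direction 4.66% of all genes were called. The median log2 fold change was 0.15, against -0.01 for all genes tested. Both ERβ5 libraries lay above both ERβ1 libraries for 17 genes and below them for 0, against 22.1% and 20.9% of all genes tested. PSMA3, at 58711561 to 58738730 on chromosome 14 (GRCh37), had 179 and 231 CPM in ERβ5, 142 and 153 CPM in ERβ1, 173 and 173 CPM in ERβ-KO, and 135 and 148 CPM in control. Both ERβ5 libraries lay above all others. The log2 fold change in ERβ5 against ERβ1 was 0.47 ± 0.12 (edgeR adjusted p = 0.0484). Without the second ERβ5 library it was 0.28 (edgeR adjusted p = 0.367), the median of the 43 genes was 0.04 and the count was 0. The count was also 0 without either ERβ1 library, and 10 without the first ERβ5 library.

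In ERβ5 against control, 3 α subunits and a lid subunit rose with PSME1 and PSME2. These 6 of 43 genes (14.0%) stand against 6.85% of all genes tested that rose. The count of falls was 0 (0 at an unadjusted p under 0.05 and 0 with DESeq2), against 6.31%, and in either direction 13.2% of all genes were called. The median log2 fold change was 0.18, against 0.01 for all genes tested. Both ERβ5 libraries lay above both control libraries for 26 genes and below them for 1, against 30.3% and 29.8% of all genes tested. PSMA3 rose by 0.54 ± 0.12 (edgeR adjusted p = 0.0133). PSMA6, at 35747839 to 35786699 on chromosome 14 (GRCh37), had 172 and 232 CPM in ERβ5, 148 and 148 CPM in ERβ1, 182 and 168 CPM in ERβ-KO, and 145 and 153 CPM in control. It rose by 0.44 ± 0.13 against control (edgeR adjusted p = 0.0449). For PSMA3 and PSMA6 both ERβ5 libraries lay above control, and for PSMA6 they overlapped ERβ-KO. PSMA4 had 183 and 220.2 CPM in ERβ5 and rose by 0.37 ± 0.11 against control (edgeR adjusted p = 0.0448). PSMD11, which helps hold the lid to the core and lies at 30771397 to 30810337 on chromosome 17, had 89.6 and 103 CPM in ERβ5, 77.2 and 73.9 CPM in ERβ1, 82.6 and 79.0 CPM in ERβ-KO, and 74.2 and 76.4 CPM in control. It was highest in both ERβ5 libraries, and rose by 0.36 ± 0.10 against control (edgeR adjusted p = 0.0401). Without the second ERβ5 library PSMA3, PSMA6, PSMA4 and PSMD11 had 0.34, 0.20, 0.23 and 0.25 and did not pass (edgeR adjusted p = 0.0935, 0.338, 0.278 and 0.237). The count was then 2, PSME1 and PSME2, and it was 2 without either control library, and 11 without the first ERβ5 library. The median was 0.11 without the second ERβ5 library.

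With the trend with GC content and length removed, 20 of the 43 genes rose in ERβ5 against control and 10 in ERβ5 against ERβ1. The calls over all genes tested grew as well, with 11.3% then rising against control and 5.48% against ERβ1. With the second ERβ5 library also left out, an alternative chosen after the data were seen, 6 genes rose against control (6.59% of all genes tested) and 1, PSME1 (0.34), against ERβ1 (2.45%). With both ERβ5 libraries, all 6 genes named above were among the 20, which also held PSMD12 (0.38), PSMD14 (0.32), PSMD7 (0.31) and the catalytic subunit PSMB5 (0.25). The 10 against ERβ1 included PSME2 (0.85), PSMA3 (0.54), PSMA6 (0.49), PSME1 (0.45) and PSME4 (0.27). Against ERβ-KO 6 genes then rose (8.62% of all genes tested) and 2 fell (9.47%), PSMC3 (-0.29) and PSMD8 (-0.23). PSME2 had 0.63 there and did not pass (edgeR adjusted p = 0.0506). When the second ERβ5 library was left out as well, 0 genes rose against ERβ-KO, and PSMC3 (-0.41) and PSMG3 (-0.36) fell.

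In ERβ1 against control, no member of the complex passed. The count was 0 of 43 with edgeR and 0 with DESeq2, against 1.36% of all genes that rose, 2.7% that fell and 4.06% in either direction. At an unadjusted p under 0.05 there were 2 genes, 1 in each direction. The median log2 fold change was 0.05, against 0.01 for all genes tested. Both ERβ1 libraries lay above both control libraries for 11 genes and below them for 7, against 26.9% and 28.2% of all genes tested. PSME1 had 0.30 ± 0.12 (edgeR adjusted p = 0.198), and it was the 1 gene that rose with the trend with GC content and length removed (0.33, edgeR adjusted p = 0.0318), against 4.18% of all genes tested.

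**Figure D5:**
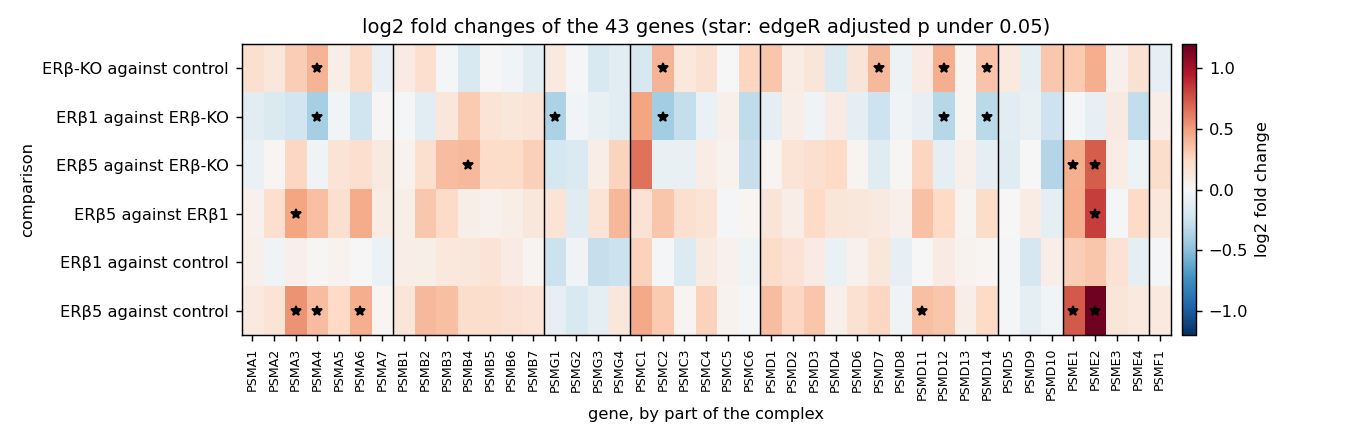
log2 fold change of each of the 43 genes (columns, by part of the complex) in the 6 comparisons, in red where higher and in blue where lower in the first-named group, with a star at an edgeR adjusted p under 0.05. The counts with a star are 5, 5, 3, 2, 0 and 6 from top to bottom, and the strongest colour is PSME2 in ERβ5 against control (1.17).

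Before any removal of the GC trend, the catalytic subunits passed in none of the 6 comparisons with edgeR or with DESeq2, and with it removed PSMB5 rose in ERβ5 against control, as given above. PSMB5, which cuts after hydrophobic residues, had 279 and 317 CPM in ERβ5, 294 and 281 CPM in ERβ1, 257 and 256 CPM in ERβ-KO, and 246 and 268 CPM in control. PSMB6, which cuts after acidic residues, had 189 and 226 CPM in ERβ5, 202 and 190.5 CPM in ERβ1, 178 and 179 CPM in ERβ-KO, and 177 and 188 CPM in control. PSMB7, which cuts after basic residues, had 159.5 and 201 CPM in ERβ5, 167 and 161 CPM in ERβ1, 146 and 149 CPM in ERβ-KO, and 151 and 171 CPM in control. In ERβ5 both libraries lay above both ERβ-KO libraries for all 3 genes, with 0.22 ± 0.10, 0.22 ± 0.11 and 0.29 ± 0.12 (edgeR adjusted p = 0.118, 0.139 and 0.0863). These changes were 0.11, 0.07 and 0.10 without the second ERβ5 library, and with the GC trend removed 0.08, 0.00 and 0.24. ERβ-KO against control gave 0.00 ± 0.10 for PSMB5, -0.04 ± 0.11 for PSMB6 and -0.12 ± 0.12 for PSMB7. A p that misses the threshold does not show that levels were equal.

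Genes that act with the proteasome were counted from 4 further lists. Among 9 regulators of proteasome genes, NFE2L1 had 911 and 1065 CPM in ERβ5, 714 and 660.4 CPM in ERβ1, 944 and 933 CPM in ERβ-KO, and 784 and 757 CPM in control. Both ERβ1 libraries lay below all other libraries. NFE2L1 fell by 0.45 in ERβ1 against ERβ-KO (SE 0.10, edgeR adjusted p = 0.0101), and it rose by 0.52 ± 0.10 in ERβ5 against ERβ1 and by 0.36 ± 0.10 in ERβ5 against control (edgeR adjusted p = 0.0143 and 0.0428). Both rises were lost without the second ERβ5 library, at 0.41 and 0.24 (edgeR adjusted p = 0.0921 and 0.238). NFE2L2, the related factor of the antioxidant response, rose by 0.32 ± 0.10 in ERβ-KO against control (edgeR adjusted p = 0.0403), and had -0.42 in ERβ1 and -0.34 in ERβ5 against ERβ-KO, both past the threshold (edgeR adjusted p = 0.0096 and 0.0222). Of their small MAF partners, MAFF and MAFG fell in ERβ1 against ERβ-KO (-0.88 and -0.75) and rose in ERβ5 against ERβ1 (1.51 and 0.55). MAFF and MAFK rose in ERβ5 against ERβ-KO (0.63 and 0.61), and NGLY1, which removes sugars from NFE2L1, fell there (-0.33). MAFF rose in ERβ5 against control (1.03), and MAFG fell in ERβ1 against control (-0.71). Of the 9 regulators, 1 rose in ERβ-KO against control, where 8.98% of all genes tested rose, and 4 fell in ERβ1 against ERβ-KO, where 12.5% fell. In ERβ5 against ERβ-KO 2 rose and 2 fell, beside 14.7% and 13.5% of all genes. In ERβ5 against ERβ1 3 rose (3.49% of all genes), in ERβ5 against control 2 rose (6.85%), and in ERβ1 against control 1 fell (2.7%).

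Among 11 proteins that bind the proteasome or help build it, the deubiquitinase UCHL5 rose in ERβ-KO against control (0.76) and fell in ERβ1 (-0.74) and in ERβ5 (-0.67) against ERβ-KO. The ubiquitin receptor ADRM1 rose in ERβ5 against ERβ-KO (0.55), and AKIRIN2, which brings proteasomes into the nucleus, rose in ERβ5 against control (0.51). The other genes of this list did not pass in any comparison before removal of the GC trend. Of the 11 genes, 1 rose in ERβ-KO against control, where 8.98% of all genes tested rose, and 1 fell in ERβ1 against ERβ-KO, where 12.5% fell. In ERβ5 against ERβ-KO 1 rose and 1 fell, beside 14.7% and 13.5% of all genes, and in ERβ5 against control 1 rose (6.85%). Of the ubiquitin genes and activating enzymes reported here, RPS27A, which encodes ubiquitin fused to a ribosomal protein, fell in ERβ-KO against control (-0.68), in ERβ5 against control (-0.88) and in ERβ5 against ERβ1 (-0.53). The polyubiquitin gene UBB rose in ERβ5 against ERβ-KO (0.48). UBA6, an activating enzyme, rose in ERβ-KO against control (0.60) and fell in ERβ1 (-0.63) and ERβ5 (-0.51) against ERβ-KO. Beside these ubiquitin genes, 8.52% of all genes tested fell in ERβ-KO against control, 6.31% in ERβ5 against control and 1.18% in ERβ5 against ERβ1. Of 9 shuttle factors and parts of the VCP segregase, UBQLN1 rose in ERβ-KO against control (0.32) and fell in ERβ1 against ERβ-KO (-0.37), and NPLOC4 rose in ERβ5 against control (0.38). Each is 1 of the 9 genes, beside 8.98%, 12.5% and 6.85% of all genes tested in the same comparisons and directions. Reads of RPS27A and UBB can be shared with near-identical copies, and their levels are uncertain. The ERβ5 changes in these 4 lists that still passed without the second ERβ5 library were UCHL5 against ERβ-KO (-0.66), MAFF against ERβ1 and against control (0.72 in the second), and RPS27A against control (-0.73).

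Some of the calls in these lists were lost with the trend with GC content and length removed. In ERβ-KO against control NFE2L2, UBA6 and UBQLN1 then had 0.16, 0.18 and 0.17 and did not pass (edgeR adjusted p = 0.112, 0.204 and 0.147), while UCHL5 had 0.28 and passed (edgeR adjusted p = 0.0274). In ERβ5 against ERβ-KO the regulators NFE2L2, MAFF, MAFK and NGLY1 had -0.13, 0.33, 0.20 and -0.09 and did not pass (edgeR adjusted p = 0.168, 0.2, 0.167 and 0.444). Nor did UCHL5, ADRM1 and UBA6, with -0.16, 0.11 and -0.09 (edgeR adjusted p = 0.133, 0.287 and 0.486). In ERβ1 against ERβ-KO UCHL5, UBA6, NFE2L2 and UBQLN1 still passed, with smaller changes of -0.35, -0.30, -0.26 and -0.23. Among the calls gained with this removal were a rise of POMP in ERβ5 against ERβ-KO and a fall of ADRM1 in ERβ1 against ERβ-KO. Before the removal, the calls of NFE2L2 and UBQLN1 in ERβ-KO against control were lost whichever of the 4 libraries compared was left out.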

How the data were processed

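The authors deposited raw read counts per gene for 8 libraries (23228 genes, with 5 closing lines for uncounted reads left out). Per the submitters' processing notes, bcl2fastq, TopHat2 2.0.8b on hg19 and HTSeq were used; the sources used here do not give the HTSeq version, strand setting or annotation. Of the sum of gene counts and closing lines, 34.7 to 39.9% had no single place, 7.01 to 7.79% no gene and 0.54 to 0.561% were ambiguous. Counts were filtered (filterByExpr, minimum count 10 and total 15), scaled with TMM and tested with edgeR 4.0.16 in R 4.3.3 (quasi-likelihood F test, all 8 libraries in 1 fit, 6 comparisons), with Benjamini-Hochberg adjustment over 13915 genes and a threshold of 0.05. SEs were computed as the log2 fold change over the square root of F. The test was also run on data simulated for ERβ-KO against control with the spread of the fit. These data held no GC trend and no deviating library, so they cannot show how the test does with either. Group-mean ratios use 0.5 CPM added. GC content and length come from a GENCODE annotation (GRCh37), matched for 93.8% of tested genes.

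The members, lists and markers were chosen with earlier results of these data known. Values are given for up to 5 called members with the largest rise and fall per comparison, the catalytic subunits, activators, inhibitor and core chaperones, and called genes of the further lists, some of which are not reported here. PSMD6, PSMC1 and genes called after GC correction were named after their values were seen. Alternatives were other size factors, other filters, fits of only the groups compared, DESeq2 1.42.0, a replicate block, removal of GC and length trends, and leaving out each library, where a lone library is assumed to vary like the other groups. The GC correction without the second ERβ5 library was added after the data were seen.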

Additional observations from a re-analysis of the deposited data

Results flagged for a closer look

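PSMA3 and PSME2 drew attention because their changes in ERβ5 and in ERβ1, each against the same ERβ-KO libraries, differed in a direct test. The difference, which equals ERβ5 against ERβ1, was 0.47 on the log2 scale for PSMA3 and 0.83 for PSME2 (edgeR adjusted p = 0.0484 and 0.0294). Both ERβ5 libraries lay above both ERβ1 libraries for both genes. Without the second ERβ5 library neither difference passed (0.28 and 0.55, edgeR adjusted p = 0.367 and 0.193).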

How the results depend on the processing

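Across the other size factors, filters, fits, tools and corrections, and with each of the 4 libraries compared left out in turn, PSME1 and PSME2 in ERβ5 against control were the only calls among the 43 genes that passed every time, with log2 changes of 0.55 to 0.90 and 0.88 to 1.41. Without a filter on low counts, the called genes numbered 8 of the 43 in ERβ-KO against control (5 in the report), 5 in ERβ5 against ERβ-KO (3), 5 in ERβ5 against ERβ1 (2) and 11 in ERβ5 against control (6). With only the groups compared in the fit they were 12 in ERβ-KO against control, 1 in ERβ5 against ERβ-KO, 1 in ERβ5 against ERβ1 and 1 in ERβ1 against control (0 in the report). DESeq2 gave 5 in ERβ5 against ERβ-KO and 5 against ERβ1, and upper quartile size factors gave 3 in ERβ5 against control. With the GC content and length trend removed there were 8 in ERβ5 against ERβ-KO, 10 against ERβ1 and 20 against control, and 1 in ERβ1 against control. That correction also reversed PSMD12 (0.30, against -0.10 without it), PSMD8 (-0.23) and POMP (0.41) in ERβ5 against ERβ-KO and ADRM1 (-0.26) in ERβ1 against ERβ-KO. With that correction and without the second ERβ5 library, an alternative added after the data were seen, there were 8 in ERβ1 against ERβ-KO, 1 in ERβ5 against ERβ1 and 2 in ERβ1 against control, with 1531 of all genes in ERβ5 against ERβ-KO and 1907 in ERβ1 against control, and ADRM1 in ERβ-KO against control (0.21) and PSMG3 in ERβ5 against ERβ-KO (-0.36) were reversed. The cause of the other changes was not tested. Leaving out 1 library at a time gave 0 to 8 called genes in ERβ-KO against control, 0 to 8 in ERβ1 against ERβ-KO, 0 to 14 in ERβ5 against ERβ-KO, 0 to 10 in ERβ5 against ERβ1, 0 to 0 in ERβ1 against control and 2 to 11 in ERβ5 against control. Over all genes tested, the counts called in the report's fit were 2434, 3466, 3922, 649, 565 and 1831 in the same order, with 237 to 3226, 1198 to 4203, 1672 to 4378, 125 to 1389, 128 to 975 and 587 to 2143 when 1 library was left out. They were 4351 in ERβ-KO against control, 421 in ERβ5 against ERβ1 and 1107 in ERβ1 against control with only the groups compared. Without a filter they were 1375 in ERβ5 against ERβ1 and 1384 in ERβ1 against control, and DESeq2 gave 865 in ERβ1 against control. With the GC trend removed they were 2517 in ERβ5 against ERβ-KO, 1170 against ERβ1 and 3050 against control, and 1362 in ERβ1 against control.

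The replicate numbers are shared between groups. Deviations of same-numbered libraries from their group means correlated at -0.21 to 0.22 over the genes tested. The GC trends of single libraries enter these values, so they cannot decide whether same-numbered libraries shared a batch. With the replicate block, the counts were 5 in ERβ-KO against control, 5 in ERβ1 against ERβ-KO, 4 in ERβ5 against ERβ-KO, 2 in ERβ5 against ERβ1, 0 in ERβ1 against control and 7 in ERβ5 against control. With 2 libraries a group, small changes can be missed, and for PSMC1 the 15 to 31 counts add a further limit.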
